A study of Homo sapiens with 5 samples.

Results

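The loci of 5 genes of the AP-1 family, JUN, JUNB, FOS, JDP2 and BATF, were examined for accessible chromatin in 5 human cell lines by DNase-seq. Sites were chosen by position alone (hg18), as peaks overlapping chromosome 1 from 58.9 to 59.15 Mb for JUN, chromosome 19 from 12.74 to 12.79 Mb for JUNB, or chromosome 14 from 74.78 to 75.12 Mb for FOS, JDP2 and BATF. They numbered 126 of 109231 peaks, and overlapping peaks joined into 62 of the 59212 merged regions of all lists. L1236, L428 and L591 are Hodgkin lymphoma lines, and the labels call Reh, a pro-B lymphoblastic leukaemia line, and Namalwa, a Burkitt lymphoma line, non-Hodgkin. All 5 were at passage 7. L1236 and L428 received DNase I at 6 U/ml, as did Reh, whereas L591 and also Namalwa received 12 U/ml, after a titration in each line. There was 1 library a line, so only the spread between lines could be measured. A line is a single tumour-derived culture, and neither transcripts nor copy number were measured.

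AP-1 is a dimer of basic leucine zipper proteins that binds short DNA elements and switches on genes of growth and inflammation. JUN proteins pair with each other or with FOS proteins, while BATF pairs with JUN proteins and works with interferon regulatory factors in lymphocytes. JDP2 binds the same elements and acts largely as a repressor. Strong constitutive AP-1 activity with high JUN and JUNB is a known feature of Hodgkin lymphoma cells.

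DNase I cuts accessible DNA, so each peak marks a stretch of open chromatin. The depth behind the lists is unknown, and their lengths differed: 25646 peaks in L1236, 23288 in L428 and 26612 in L591, against 27925 in Reh and 5760 in Namalwa (chromosomes 1 to 22 and X). Missing peaks in Namalwa therefore carry less weight than those in Reh, the longest list. Of the Namalwa peaks, 5669 (98.4%) overlapped a Reh peak, against 83% for L591, 76.2% for L428 and 65.8% for L1236. Where Reh has no peak, a missing Namalwa peak thus adds little. The authors' score of a peak has no scale common to the lists, so it is given as a percentile within its own list, where 100 is the highest. Taken as a peak area, the score depends on the width of a peak as well as on its signal. The L1236 list alone lacks the mark qcTrimmed that the other lists carry.

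The stretches of 250 bases before the annotated starts of 4 of the genes are shown because the results compare accessibility at or near these genes. They come from RefSeq (GRCh38.p14), whose coordinates do not correspond to the hg18 positions of the peaks. All 5 genes had at least 1 promoter entry and JDP2 had 3. Sequences run 5′ to 3′ on the gene's strand, and capitals mark matches to 6 motifs searched on both strands. The motifs were the AP-1 element TGANTCA, the related octamer TGACATCA, the CRE core TGACGT, the TATA box TATAAA, an IRF-type pair of GAAA copies with 2 bases between and an NF-kB consensus decamer. No match overlapped another in these stretches.
JUN, chr1:58784048-58784297, minus strand: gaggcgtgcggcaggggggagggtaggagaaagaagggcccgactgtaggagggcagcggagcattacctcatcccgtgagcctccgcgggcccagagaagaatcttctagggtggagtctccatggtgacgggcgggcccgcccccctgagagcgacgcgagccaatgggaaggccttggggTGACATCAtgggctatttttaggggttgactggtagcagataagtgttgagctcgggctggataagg
JUNB, chr19:12791236-12791485, plus strand: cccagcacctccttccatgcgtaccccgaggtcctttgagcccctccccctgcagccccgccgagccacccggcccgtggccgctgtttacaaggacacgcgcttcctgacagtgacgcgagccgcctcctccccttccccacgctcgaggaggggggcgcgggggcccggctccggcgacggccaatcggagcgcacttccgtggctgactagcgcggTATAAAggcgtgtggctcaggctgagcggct
FOS, chr14:75278578-75278827, plus strand: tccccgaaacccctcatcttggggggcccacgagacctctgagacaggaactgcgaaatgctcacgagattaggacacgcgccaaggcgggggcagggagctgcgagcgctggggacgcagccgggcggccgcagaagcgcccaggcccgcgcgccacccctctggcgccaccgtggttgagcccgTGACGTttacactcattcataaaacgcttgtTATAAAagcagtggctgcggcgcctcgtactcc
BATF, chr14:75522219-75522468, plus strand: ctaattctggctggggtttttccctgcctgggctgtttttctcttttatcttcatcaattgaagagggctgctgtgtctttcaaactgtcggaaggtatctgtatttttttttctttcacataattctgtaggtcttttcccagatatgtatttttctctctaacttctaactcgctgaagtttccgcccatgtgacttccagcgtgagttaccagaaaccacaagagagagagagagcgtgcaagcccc
The JUN stretch held TGACATCA from base -67, counted from the start, an octamer found in 2.37% of 35116 RefSeq promoters of the same length. The FOS stretch held TGACGT from base -64 and TATAAA from base -33, and the JUNB stretch held TATAAA from base -31. TGACGT was present in 7.10% and TATAAA in 10.7% of all promoters. No letters of the BATF stretch matched any of the 6 motifs. The motifs without a match were TGANTCA, present in 6.57% of all promoters, the IRF-type pair, in 3.02%, and the NF-kB decamer, in 0.179%. The BATF stretch also had the lowest GC content of these 4, at 43.2%, against 62.0% for JUN, 70.8% for JUNB, 64.8% for FOS and a median of 58.0% over all promoters.

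Around BATF, accessible sites were listed for L1236, L428 and L591 and for neither Reh nor Namalwa. BATF lies on chromosome 14 at 75.059 to 75.083 Mb, and with flanks of equal size on either side a stretch of 98 kb was counted. L1236 had 20 peaks there, L428 had 5 and L591 had 17, while Reh and Namalwa had 0. Per 10000 peaks of the list, these were 7.80 in L1236, 2.15 in L428 and 6.39 in L591. The Hodgkin mean was 5.44 ± 2.94 (SD, n = 3), against 0 in both non-Hodgkin lines. The groups did not overlap, as was the case, with each Hodgkin line higher, in 14.9% of 15622 tiles of this length over the genome, and with each lower in 8.19%. Here and below, only tiles with a peak in at least 1 line were counted. With 10 ways to divide the lines, a two-sided exact permutation test gave p = 0.2 (Benjamini-Hochberg 0.5 over 10 tests), and no p below 0.1 can be reached with these group sizes. Covered length also separated the groups, with 766 bp in L1236, 222 bp in L428 and 780 bp in L591 per Mb covered by the list (exact permutation p = 0.2), against 0 in Reh and Namalwa. Leaving out 1 line at a time gave differences in peaks per 10000 between 4.27 (without L1236) and 7.09 (without L428). With 0 in both non-Hodgkin lines, no such difference could change sign. At 6 U/ml the shares of 7.80 and 2.15 stood against 0 in Reh, and at 12 U/ml the 6.39 of L591 stood against 0 in Namalwa. Nearly all peaks of the whole Namalwa list overlapped a Reh peak, so the 0 of Namalwa adds little to that of Reh. The permutation test nonetheless counted both as separate lines.

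**Figure D1:**
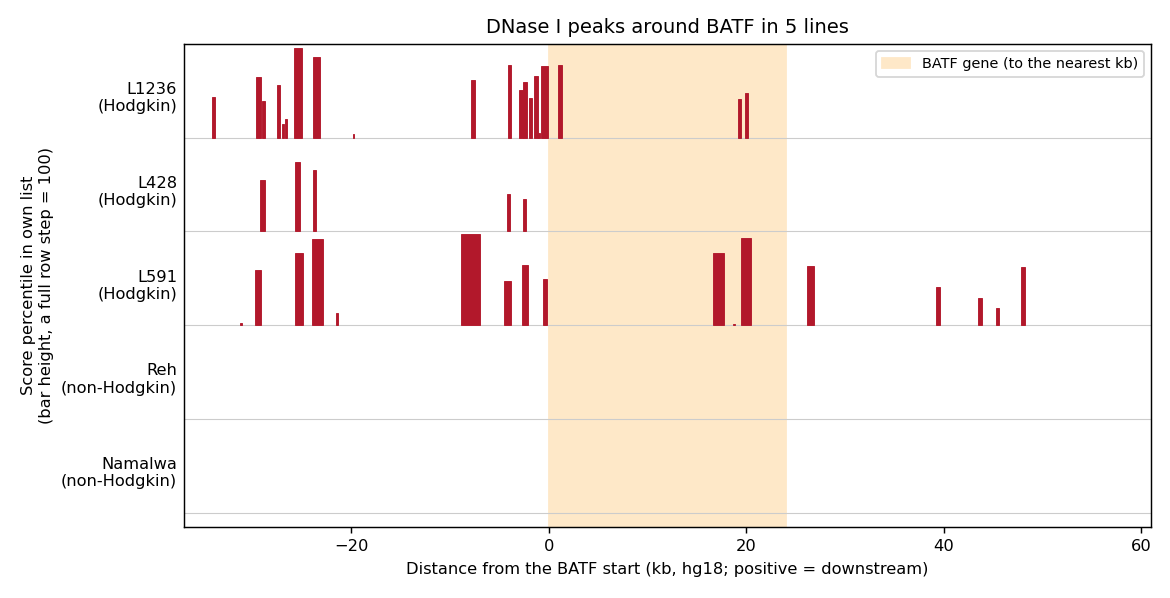
Peaks of each line around BATF by distance from the gene's start in kb. Bars are drawn to their width, their height is the score percentile in the line's own list, and shading marks the gene. L1236, L428 and L591 have 20, 5 and 17 peaks, while the rows of Reh and Namalwa are empty.

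Few stretches of the genome showed this pattern. At least 5 peaks in each Hodgkin list and none in either non-Hodgkin list were found in 29 of the 15622 tiles (0.186%), and at least 1 peak in each in 6.87%. These levels were set to the BATF values themselves, so they describe where the locus stands and test nothing. In L1236, 0.480% of tiles held 20 or more peaks. In L591, 0.147% held 17 or more, and in L428, 6.57% held 5 or more.

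The BATF peaks joined into 27 regions, none with a non-Hodgkin peak, a class that made up 55.9% of all merged regions. Of these, 5 were shared by L1236, L428 and L591. Over the whole lists, 32.1% of the 7998 regions shared by these lines lacked a non-Hodgkin peak. Such regions, common to the Hodgkin lines and missing from Reh and Namalwa, made up 4.33% of all merged regions. These 5 lay before the BATF start, in a distal group of 3 and a proximal group of 2. JDP2 precedes BATF in the RefSeq gene order, and whether the distal group belongs to JDP2 or to BATF was not determined.

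The distal group held the site with the highest score of L1236 and of L428 near BATF, at 75033201 to 75034050, about 25 kb before the start. It had a percentile of 95.9 for L1236, 74.5 for L428 and 77.3 for L591, with no peak in Reh or Namalwa. Its neighbour at 75035021 to 75036130 stood at 86.5 in L1236, 65.2 in L428 and 92.2 in L591. The region at 75029221 to 75030250, about 29 kb before the start, stood at 64.4 in L1236, 55.2 in L428 and 58.9 in L591. All 3 were thus above the middle of each Hodgkin list by score. Per bp, however, the peaks of the region at 75029221 to 75030250 scored below the list median in each Hodgkin line. They stood at 0.896 and 0.813 of it in L1236, 0.78 in L428 and 0.86 in L591. Peaks of the other distal regions scored above the median per bp in each Hodgkin line.

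In the proximal group L428 stood below the middle of its list at both regions, and L591 did so at the first. The region at 75054471 to 75055150, about 4 kb before the start, had a percentile of 77.6 for L1236, 40.1 for L428 and 46.7 for L591. The region at 75056021 to 75056850 stood at 59.3 in L1236, 35 in L428 and 64.3 in L591. These 5 regions took up every L428 peak near BATF.

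L1236 and L591 shared 3 further BATF regions that L428 lacked. None of the 3 had a peak in Reh or Namalwa, which was also so for 66.9% of the 2349 regions of this kind over the whole lists. The region nearest to the gene's start, at 75058241 to 75058880, stood at percentile 76.0 in L1236 and 48.8 in L591. A wide region of 1940 bp at 75050101 to 75052040, about 8 kb before the start, stood at 97.5 in L591, its highest near BATF, and 61.6 in L1236. The region at 75078491 to 75079470, inside the gene, stood at 93.4 in L591 and 47.3 in L1236. The BATF start is known here to the nearest kb, so L1236 and L591 had a listed site within about 1 kb of it, whereas the last L428 peak ended at 75056670.

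The remaining 19 regions belonged to a single line, 10 to L1236 and 9 to L591, a class that made up 62.9% of all merged regions. Of those of L1236, 8 lay before the start and 2 in the gene, at percentiles of 4.14 to 77.3. Of those of L591, 2 lay before the start, 2 in the gene and 5 beyond its end, at percentiles of 0.936 to 76.8. By score, the highest of L1236, at 75059911 to 75060370, and the highest of L591, at 75075621 to 75076750, were both inside BATF. Per bp, the L1236 peak scored 1.27 of its list median and the L591 peak, 1130 bp wide, 0.793 of its own. Counting peaks no more than 200 bp apart together reduced L1236 from 20 peaks to 14 and left L428 at 5 and L591 at 17. The L591 peak nearest to the gene's end, at 75085111 to 75085820, stood at percentile 62.9 and the last, at 75106791 to 75107230, at 62.2.

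All 5 L428 peaks at BATF overlapped a peak of L1236 and a peak of L591, against 43.5% and 67.4% of the whole L428 list. In the other direction, 6 of the 20 L1236 peaks overlapped an L428 peak, against 38.8% of the whole L1236 list, and 5 of the 17 L591 peaks (29.4%) did, against 55.1% of the whole L591 list. Of the 20 L1236 peaks, 9 overlapped an L591 peak, against 44.6% over the whole L1236 list. Of the 17 L591 peaks, 8 (47.1%) overlapped an L1236 peak, against 40.6% over the whole L591 list. FLVCR2, a haem transporter family gene, follows BATF in the RefSeq gene order, and whether the last L591 peaks belong to it was not determined.

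The BATF sites were of middling rank within the Hodgkin lists. L1236 peaks had a median percentile of 53.4, those of L428 of 55.2 and those of L591 of 58.9. When each list was limited to its 5760 highest-scoring peaks, the length of the Namalwa list, 3 BATF peaks of L1236 and 3 of L591 remained and none of L428. At that length L428 was at 0 like Reh and Namalwa, so the groups no longer separated, and the difference of means was 3.47 per 10000 in place of 5.44. No region near BATF was then shared by all 3 Hodgkin lines.

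Over the whole FOS to BATF window most peaks of the Hodgkin lines were those of the BATF stretch, 20 of 23 in L1236, 5 of 7 in L428 and 17 of 20 in L591. Per 10000 peaks, L1236 had 8.97, L428 had 3.01 and L591 had 7.52, against 0.716 in Reh and 1.74 in Namalwa (two-sided exact permutation p = 0.2, difference 5.27). Tiles of this length had each Hodgkin line above both non-Hodgkin lines in 18.6% and below in 11.4%.

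**Figure D2:**
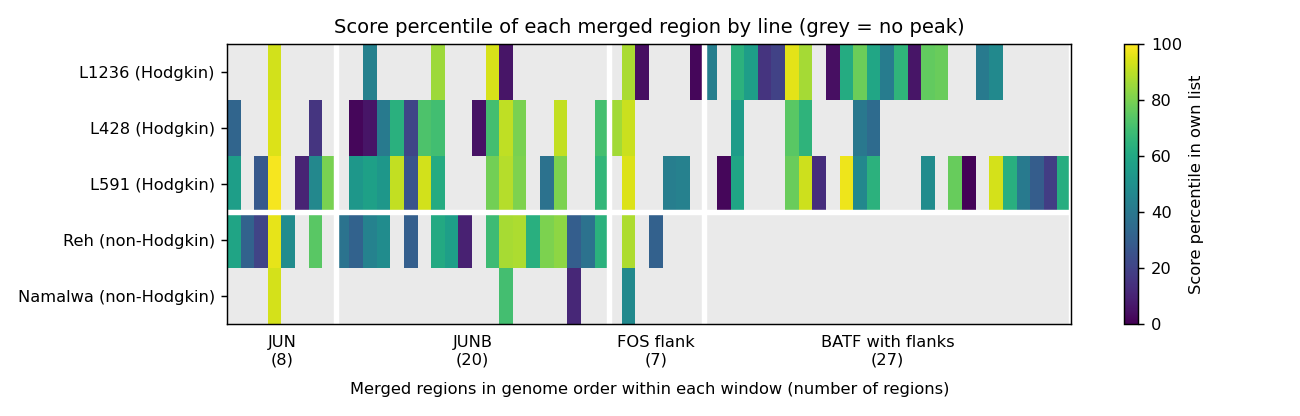
Each column is a merged region in genome order within its window, each row a line, and colour gives the score percentile in the line's own list. Grey means no peak. The 27 regions at BATF are grey throughout in Reh and Namalwa, whereas Reh has a peak in 17 of the 20 JUNB regions.

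No list had a peak in the 172 kb between the FOS and BATF stretches, where JDP2 lies by the gene order. Over all 5 lines the empty interval ran from 74832680 to 75024931, or 192 kb. No accessible site in this interval could therefore be described for JDP2, and sites below the authors' unstated threshold would not be listed.

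FOS, the early-response partner of JUN, had little listed accessibility at the gene itself. In the 70 kb around its position at about 74.815 Mb, L1236 had 3 peaks, L428 had 2 and L591 had 3, against 2 in Reh and 1 in Namalwa. Per 10000 peaks, the Hodgkin lines averaged 1.05 ± 0.169 (SD, n = 3), and Reh and Namalwa had 0.716 and 1.74. The groups overlapped (two-sided exact permutation p = 0.9), whereas 14.1% of tiles of this length had each Hodgkin line above both others and 7.4% had each below. Covered length came to 104 bp for L1236, 144 bp for L428 and 105 bp for L591 per Mb covered by the list, against 64.4 bp in Reh and 183 bp in Namalwa. At the gene's position, L591 had a peak at 74815201 to 74815730 with percentile 42.7, and Reh had another at 74814841 to 74815080 with percentile 30.9. The other lists had none there.

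The main site near FOS lay about 19 kb before it and was present in every line. This region, at 74795321 to 74796010, had a percentile of 87.2 for L1236, 91.9 for L428 and 94.9 for L591, against 87.6 in Reh and 47.4 in Namalwa. It was the highest-scoring site of the stretch in each of the 5 lines. L428 alone had a further site at 74785801 to 74786460, about 29 kb before FOS, with percentile 86.1. Of the 7 regions around FOS, 6 belonged to a single line, against the 62.9% over all merged regions.

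JUN, the central subunit of AP-1, had a strong accessible region in every line. This region, at 59021661 to 59023570 on chromosome 1, had a percentile of 93.3 for L1236, 94.8 for L428 and 98.7 for L591, against 96.2 in Reh and 93.5 in Namalwa. The groups overlapped, and all 5 values lay above percentile 90. Its leading peak was 570 bp wide in L1236, 920 bp in L428 and 1820 bp in L591, against 1060 bp in Reh and 850 bp in Namalwa. The 1910 bp region was the only JUN region with a peak in L1236 or in Namalwa. Regions of all 5 lines made up 5.12% of all merged regions.

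Around the JUN region the lines differed without a split between the groups. L1236 had 1 peak in the 250 kb window, L428 had 4 and L591 had 7, against 8 in Reh and 1 in Namalwa. Per 10000 peaks these were 0.390, 1.72 and 2.63 in L1236, L428 and L591, against 2.86 in Reh and 1.74 in Namalwa (two-sided exact permutation p = 0.4, difference of means -0.721). This difference was -0.126 without L1236, -1.25 without L591, -0.157 without Reh and -1.29 without Namalwa. It was -2.23 when lists were limited to their upper 50% by score. With lists of equal length it was 0.579 by score and 0 by score per bp. At 12 U/ml alone it was 0.894 (L591 against Namalwa). The groups overlapped, whereas 17.8% of tiles of this length had each Hodgkin line above both others and 10.8% had each below. Covered length per Mb of the list came to 57.6 bp for L1236, 181 bp for L428 and 316 bp for L591, against 309 bp in Reh and 420 bp in Namalwa. A site at 58938111 to 58938510 stood at percentile 32.7 in L428 and 56.2 in L591, against 58.4 in Reh. Another at 59054421 to 59054990 stood at 15.4 in L428 and 46.8 in L591, against 74.6 in Reh. L1236 and Namalwa lacked both. L591 alone had a site at 59141451 to 59142320, at percentile 79.7. None of the 8 JUN regions was common to the Hodgkin lines and missing from Reh and Namalwa. MYSM1, a histone deubiquitinase gene, and FGGY, a carbohydrate kinase gene, are the protein-coding neighbours of JUN in RefSeq, and peaks were not assigned among them.

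**Figure D3:**
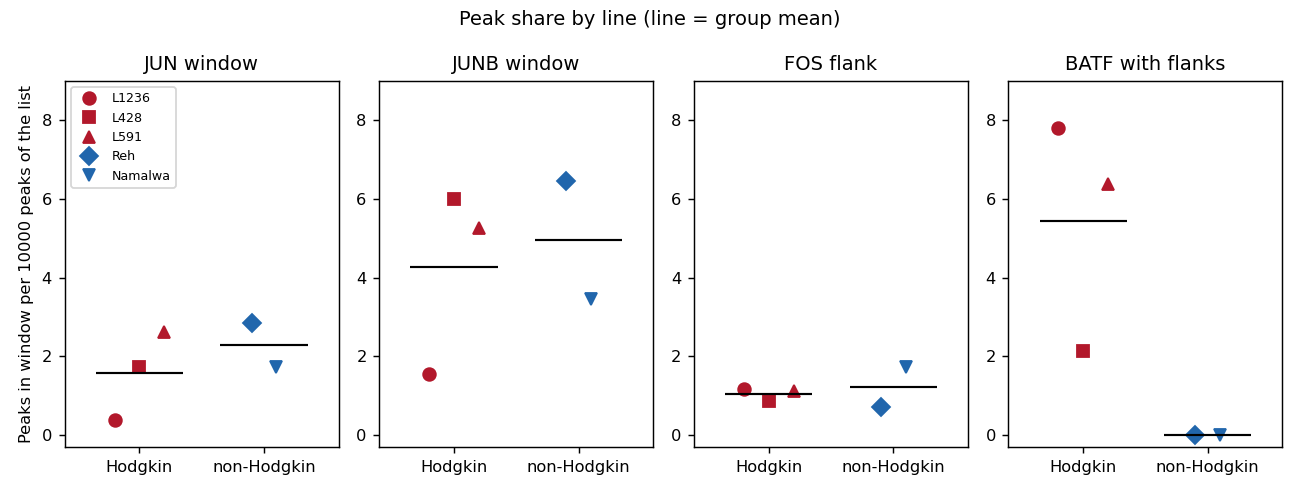
Peaks per 10000 peaks of the list in 4 stretches, by line, with Hodgkin lines left and non-Hodgkin lines right in each panel and a bar at the group mean. At BATF the Hodgkin lines sit at 7.80, 2.15 and 6.39 and both non-Hodgkin lines at 0, and the groups overlap elsewhere.

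JUNB, a JUN relative prominent in Hodgkin lymphoma, lay in a dense run of sites in L428, L591 and Reh. L1236 had 4 peaks in the 50 kb window, L428 had 14 and L591 had 14, against 18 in Reh and 2 in Namalwa. Tiles of this length with as many peaks or more made up 7.61% of 22043 tiles in L1236, 0.132% in L428 and 0.0907% in L591, against 0.132% in Reh and 4.5% in Namalwa. Per 10000 peaks, the Hodgkin lines averaged 4.28 ± 2.38 (SD, n = 3), while Reh had 6.45 and Namalwa 3.47. The groups overlapped (two-sided exact permutation p = 0.8), whereas 13.2% of tiles of this length had each Hodgkin line above both others and 6.56% had each below. Covered length per Mb of the list came to 208 bp for L1236, 672 bp for L428 and 707 bp for L591, against 626 bp in Reh and 281 bp in Namalwa. The mean difference in peak share of -0.682 was 0.677 without L1236 and 0.805 without Reh.

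The JUNB window gave 20 regions, of which 10 had a peak in each of L428, L591 and Reh. Only 4 of those 10 also had an L1236 peak, against 66.0% of the 8219 such regions over the whole lists. Regions with a peak in both L428 and L591 numbered 12, and 10 of them had a Reh peak, against 57.9% over the whole lists. No JUNB region was common to the Hodgkin lines and missing from Reh and Namalwa. The region at 12768281 to 12768570 was the reverse case, found in Reh and Namalwa alone. Its percentile was 29.8 in Reh and 11.1 in Namalwa, and 1.04% of all merged regions were of this class.

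The region of the JUNB window found in every line, at 12761541 to 12762610, was strong in 4 lines and weak in L1236. It had a percentile of 5.84 for L1236, 90.4 for L428 and 88.8 for L591, against 87.1 in Reh and 70.0 in Namalwa. L1236 had its highest site in the window beside it, at 12760321 to 12761390, where it stood at 94.1. There L428 stood at 70.3 and L591 at 78.8, against 68.5 in Reh. The other L1236 sites of the window also lay in joined regions with peaks of L428, L591 and Reh. At 12756061 to 12757120, L1236 stood at 85.4, L428 at 69.6 and L591 at 61.5, against 60.7 in Reh. At 12749221 to 12749890, L1236 stood at 43.8, L428 at 5.68 and L591 at 56.9, against 44.3 in Reh. There the L1236 and Reh peaks did not overlap each other and were joined through peaks of L428 and L591.

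Further along the chromosome L1236 had no listed site in the JUNB window. Whether the missing qcTrimmed mark of its list had a part in this was not tested. The region at 12762811 to 12763500 stood at percentile 80.0 in L428 and 80.5 in L591, against 87.8 in Reh, where it was the highest of the window. The region at 12765111 to 12766070 stood at 90.8 in L428, its highest of the window, and 80.3 in L591, against 82.9 in Reh. At 12764291 to 12764800, L591 stood at 37.8, against 80.2 in Reh.

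L428 and L591 shared a pair of JUNB regions that L1236, Reh and Namalwa lacked. The region at 12754461 to 12755830 stood at percentile 93.1 in L591, its highest of the window, and 72.0 in L428. The region at 12750681 to 12751860 stood at 90.9 in L591 and 63.5 in L428. HOOK2, which encodes a microtubule-linked adaptor, and PRDX2, which encodes a peroxidase, flank JUNB in RefSeq, and peaks were not assigned among these genes.

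**Figure D4:**
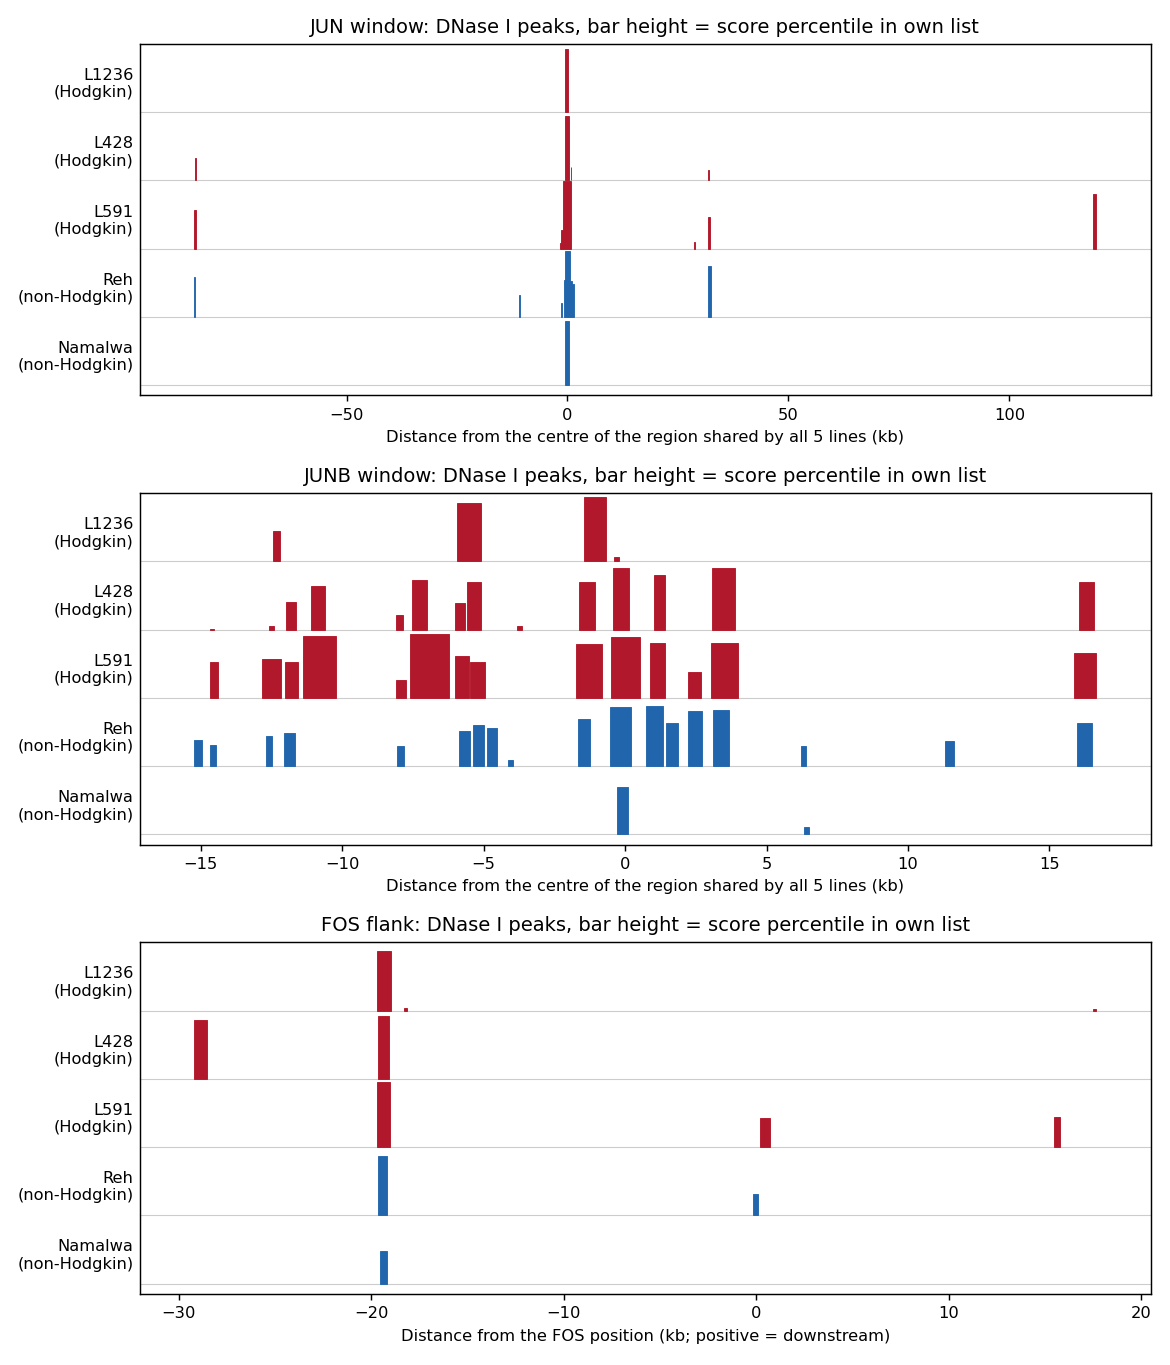
Peaks in the JUN window, the JUNB window and around FOS, with Hodgkin lines above non-Hodgkin lines, as distance in kb from the region shared by all 5 lines (JUN, JUNB) or from the FOS position. Bar height is the score percentile in the line's own list, with a full row step for 100. Every line has a peak within 1 kb of 0 in the JUN and JUNB panels, and L1236 has none to the right of 0 in the JUNB panel.

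Over the 3 windows, 5 of 62 regions were common to L1236, L428 and L591 and missing from Reh and Namalwa, all of them at BATF, against 4.33% of all merged regions. Another 3 of the 62 were present in every line, 1 each at JUN, JUNB and before FOS, against 5.12% of all merged regions. The nearest regions outside the windows lay 10.6 kb beyond the upper JUN edge (L1236 and L591), 1.79 kb below the lower JUNB edge (L428 and Reh) and 66.4 kb below the lower FOS edge (L1236, L428, L591 and Reh). The last region inside the upper edge at BATF lay 12.8 kb from it and was found in L591, and the next one beyond lay 76.7 kb outside, in L1236, L428, L591 and Reh.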

How the data were processed

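One deposited DNase-seq peak list a line was used, and the labelled lymphoma type set the group. The submitters' processing notes name Bowtie 1.00 and hg18. Column 2 of the files records an elongation to 146 bp and bins of 10 bp. The score that the authors deposited for a peak is its area, by the names of the files. For the caller, its threshold and the depth, a statement is not given in the sources used here. A growth note spells a Hodgkin line otherwise than its title, which was followed.

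Peaks sharing at least 1 bp were joined into regions. Scores were used as percentiles within a list, with ties at their middle rank. The 3 windows and the FOS and BATF positions (to the nearest kb) were given with the choice of genes, and both they and the tests were chosen with earlier results of these data known. The chromosome 14 window was divided into 70 kb around FOS, 98 kb around BATF and the 172 kb between. Peak share and covered length in 5 stretches were compared by exact permutation over lines (10 tests). These p-values measure the spread between lines. Tiles of equal length over chromosomes 1 to 22 and X gave the background. Tiles without a peak in any line were left out of it.

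Alternatives were lists of equal length (by score or score per bp), the upper 50% of each list, each line left out, each DNase I concentration alone, peaks placed by their centre, and other overlap, joining and width rules.

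Regions given in full have peaks in every line, in every line of a single group, the highest score of a line in a stretch, or the position nearest to FOS or BATF. The text also names, after their values were seen, regions shared by some lines and single-line regions. No single-line region reached percentile 90. No hg18 annotation or sequence was used here, so gene order and promoters come from RefSeq (GRCh38.p14), and other AP-1 genes and B cell loci were not described. Scripts ran in Python 3.11.15 with numpy 2.4.6 and were tested on simulated lists. Those lists held well-separated regions with at most a single peak per line, so the joining of closely spaced peaks was not tested.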

Additional observations from a re-analysis of the deposited data

Results flagged for a closer look

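In 3 stretches the difference in peaks per 10000 between Hodgkin and non-Hodgkin lines had opposite signs at the 2 DNase I concentrations, with every line following its group. At JUN it was -1.81 at 6 U/ml (L1236 and L428 against Reh) and 0.894 at 12 U/ml (L591 against Namalwa). At JUNB it was -2.66 at 6 U/ml and 1.79 at 12 U/ml. Around FOS it was 0.298 at 6 U/ml and -0.609 at 12 U/ml. The difference between concentrations was not tested, each rests on 3 lines or fewer, and concentration cannot be told apart from the choice of lines.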

How the results depend on the processing

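At BATF and over the whole FOS to BATF window, the Hodgkin means of peak share and covered length stayed above the non-Hodgkin means. This held under all 10 or 11 alternatives run for each (exact permutation p from 0.2 to 0.5). With 0 BATF peaks in Reh and Namalwa, the direction at BATF could not reverse under any of them. Most Hodgkin peaks of the whole window were those at BATF. The differences shrank with lists of equal length. At BATF, peak share fell to 3.47 by score and 2.31 by score per bp, against 5.44 as reported, and covered length to 390 and 269, against 589. Over the whole window peak share fell to 4.05 and 1.74, against 5.27. By score L428 then had 0 BATF peaks, like Reh and Namalwa. Mean covered length at JUN stayed lower in the Hodgkin lines in all 10. As reported, the groups overlapped there (two-sided exact permutation p = 0.3), with L591 at 316 bp per Mb and Reh at 309 bp. The other directions were not stable, and the cause was not tested.

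With lists of equal length by score, the peak share difference (Hodgkin minus non-Hodgkin, per 10000) became 0.579 at JUN, 1.16 at JUNB and 0.579 around FOS, where covered length became 66.1 bp per Mb. With the upper 50% of each list these were 0.499 at JUNB, and 0.725 and 96.4 around FOS. Peak share at JUN was -2.23 with the upper 50% and ranged from -1.29 to -0.126 with a line left out. Ranking by score per bp gave 0 for peak share at JUN and -220 for covered length at JUNB. At 6 U/ml alone, covered length was -186 at JUNB and 59.9 around FOS, where peak share was 0.298. At 12 U/ml alone, peak share was 0.894 at JUN and 1.79 at JUNB. Leaving out a line moved peak share at JUNB between -2.17 and 0.805 and covered length there between -96.6 and 248. Around FOS these ranges were -0.684 to 0.336 and -64.7 to 53.5.

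Regions of all Hodgkin lines and no non-Hodgkin line, 5 in all and at BATF, numbered 0 with either equal-length ranking and 3 with the upper 50%. With an overlap of at least 50% of the shorter peak, centres within 250 bp or widths set to 200 bp, they numbered 4. Joining peaks up to 200 bp apart left them at 5. They ranged from 5 to 8 over the windows and from 5 to 8 at BATF when a line was left out. At 12 U/ml, where this means L591 without Namalwa, they were 38 and 17. Regions of every line were 1 with the upper 50% and by score per bp, 6 at 6 U/ml and 3 to 6 with a line left out. The single non-Hodgkin region was lost (0) with both equal-length rankings, the upper 50% and an overlap of at least 50% of the shorter peak. It became 11 at 6 U/ml and 1 to 9 with a line left out. No paired analysis was possible because the lines are separate cultures with a single library each. The short Namalwa list, its near-complete overlap with the Reh list, unknown depth and single library per line limit what the absences show.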
